A study of Saccharomyces cerevisiae with 95 samples.

Results

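The hydrogen peroxide (H2O2) course in the glucose-limited chemostat comprised 8 of the 95 arrays of the series, chosen by their titles. The last of the perturbed samples was taken 28.32 h after H2O2 was given to a final 0.6 mM, and the others at 0.25, 1.2, 2.83, 7.73, 13.5 and 19.67 h. The eighth array, taken 0.73 h before the addition (-0.73 h), showed the unperturbed steady state of the same culture. All cells of the glucose-limited courses were Saccharomyces cerevisiae BY4741, a haploid laboratory strain that cannot make its own histidine, leucine, methionine or uracil, grown with 0.02% glucose as the limiting nutrient. In a chemostat fresh medium flows in at the rate at which culture leaves, so a single addition is washed out over time while its breakdown by the cells removes it as well. Each array compared the chemostat sample, labelled with Cy5, with batch culture cells of late logarithmic phase in similar medium, labelled with Cy3, and the dyes were never exchanged.

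Each value is the log2 ratio of chemostat over batch signal for 1 of 6132 open reading frames (ORFs), and a change is the log2 ratio at a given time minus that at -0.73 h. There was 1 culture and 1 array per time. The spread therefore came from the 5 glucose-limited steady-state arrays of the series, which are the -0.73 h array of this course (the H2O2 culture) and the arrays taken before the perturbations with DTT, heat shock, NaCl and glucose (the DTT, heat shock, NaCl and glucose cultures). An ORF is said to have risen or fallen when its log2 ratio differed from the mean of these 5 arrays at an adjusted p under 0.05 (limma moderated test, Benjamini-Hochberg over all ORFs). This test assumes that a perturbed array varies as the 5 unperturbed arrays do, and its p-values measure the spread between those 5 arrays only. Applied to the -0.73 h array against the other 4, it called 0 ORFs, with 205 at an unadjusted p under 0.05. For the arrays of the NaCl, DTT, heat shock and glucose cultures, each against the other 4, it called 14, 1, 0 and 0. These arrays had 430, 76, 311 and 402 ORFs at an unadjusted p under 0.05. All ratios are relative to total labelled RNA, so a lower share of a transcript and a lower amount per cell cannot be told apart.

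Yeast breaks down H2O2 with catalases, cytochrome c peroxidase, peroxiredoxins fed by thioredoxin, and glutathione peroxidases. For the peroxiredoxins and glutathione peroxidases, NADPH is the final source of electrons. The transcription factors Yap1 and Skn7 switch on most of these genes when peroxide oxidises thiols in the cell, while Msn2 and Msn4 drive a general programme shared by many stresses. Superoxide dismutases remove the related superoxide radical, and iron is handled closely alongside because free iron turns peroxide into more damaging radicals. In fast-growing cells a large share of transcription serves ribosome production, which many stresses reduce.

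The number of ORFs at least 2-fold higher than at -0.73 h was 257 at 0.25 h (4.19% of all ORFs), 587 at 1.2 h (9.57%), 196 at 2.83 h (3.2%), 113 at 7.73 h (1.84%), 337 at 13.5 h (5.5%), 125 at 19.67 h (2.04%) and 50 at 28.32 h (0.815%). The number at least 2-fold lower was 125 (2.04%), 578 (9.43%), 246 (4.01%), 153 (2.5%), 151 (2.46%), 259 (4.22%) and 127 (2.07%) at the same times. Both counts were thus highest at 1.2 h, and the increases had a second maximum at 13.5 h. For scale, pairs of the 5 unperturbed cultures had 47 to 210 ORFs that differed 2-fold or more in either direction, so the total of 177 at 28.32 h lay within that range and the totals of the other 6 times lay above it. Of all ORFs, 4158 stayed below a 2-fold change at all 7 times, and of the other 1974 the largest change came at 0.25 h for 203, at 1.2 h for 926 and at 13.5 h for 300.

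**Figure D1:**
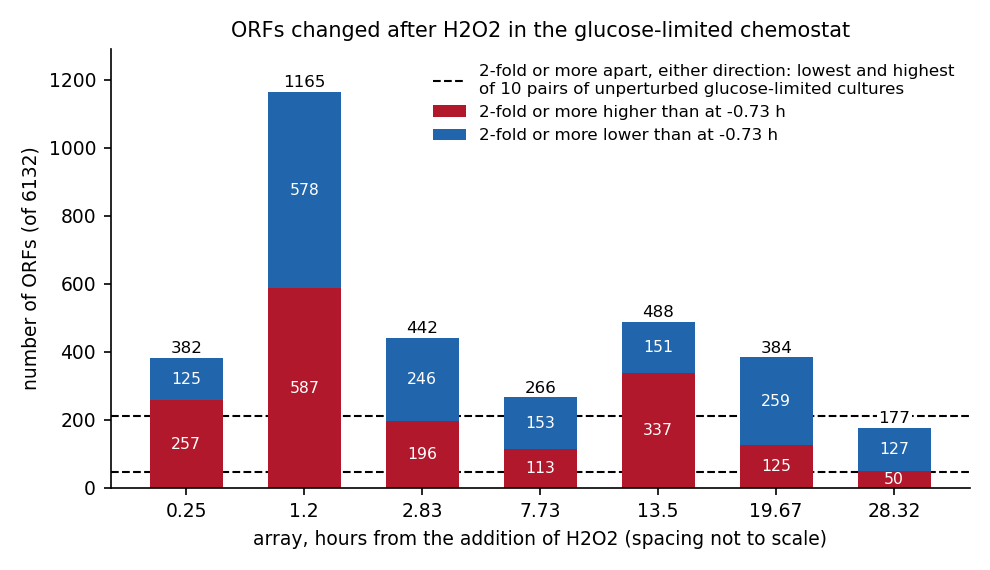
Number of ORFs (vertical axis) at least 2-fold higher or lower than on the -0.73 h array, stacked, by time after H2O2 in hours (horizontal axis). The dashed lines mark the lowest and highest number of ORFs 2-fold apart between 2 unperturbed cultures, 47 and 210, and the bars peak at 1.2 h with 587 higher and 578 lower.

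Against the 5 steady-state arrays, 365 ORFs rose and 250 fell at 0.25 h, which is 5.95% and 4.08% of those tested. At 1.2 h 1013 rose (16.5%) and 1016 fell (16.6%), at 2.83 h 597 rose (9.74%) and 540 fell (8.81%), and at 7.73 h 107 rose (1.74%) and 148 fell (2.41%). At 13.5 h 655 rose (10.7%) and 522 fell (8.51%), at 19.67 h 294 rose (4.79%) and 560 fell (9.13%), and at 28.32 h 96 rose (1.57%) and 264 fell (4.31%). Leaving out the steady-state array of the DTT culture reduced the 615 calls at 0.25 h to 386, the 1137 at 2.83 h to 616, the 255 at 7.73 h to 52, the 1177 at 13.5 h to 745, the 854 at 19.67 h to 418 and the 360 at 28.32 h to 0, with 1292 ORFs at an unadjusted p under 0.05 at 28.32 h. At 7.73 h the calls also fell to 86, 62 and 128 without the heat shock, NaCl or glucose culture, and at 28.32 h to 58, 82 and 82.

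Genes of the peroxide-removing thioredoxin system were already high on the first perturbed array. Of 11 thioredoxin and peroxiredoxin genes, 7 rose at 0.25 h, against 5.95% of all ORFs, and 10 rose at 1.2 h, against 16.5% of all ORFs. Their median change was 3.21 at 0.25 h and 3.05 at 1.2 h on the log2 scale, against 0.00 and 0.01 over all ORFs, and it was between 0.00 and 0.34 from 2.83 h onward (0.40 at 13.5 h against the mean of the 5 steady states). The 10 at 1.2 h were 7 without the NaCl culture, 8 without the DTT or glucose culture and 9 without the heat shock or H2O2 culture. With all 5 arrays only 1 of the 11, PRX1, the mitochondrial peroxiredoxin, was not called at 1.2 h. It was listed at exactly 0 on all 8 arrays, which may be a placeholder for no measurement.

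TRR1, the cytoplasmic thioredoxin reductase, had a log2 ratio of -0.05 at -0.73 h and then 5.05, 3.75, 0.15, 0.29, 0.50, 0.21 and -0.07 over the 7 times (adjusted p = 6.49e-06 at 0.25 h, limma). TSA2, a cytoplasmic peroxiredoxin, had -0.18 and then 4.57, 4.99, -0.27, 0.21, -0.51, -0.01 and -0.34 (adjusted p = 6.61e-06 at 0.25 h). TRX2, a cytoplasmic thioredoxin, had 0.18 and then 4.32, 4.71, 0.67, 0.17, 0.33, 0.38 and 0.21. For each of the 3, the arrays at 0.25 and 1.2 h stood far above all others, and the remaining 5 were not called. The peroxiredoxin AHP1 did not follow that course to its end. Its log2 ratio was 0.58 at -0.73 h and then 4.76, 5.36, 0.90, 2.19, 2.42, 1.47 and 0.70, with further calls above the steady states at 7.73 h (adjusted p = 0.017), 13.5 h (0.0063) and 19.67 h (0.0483, and up to 0.0892 without the DTT, heat shock, NaCl or H2O2 culture). TSA1, the major cytoplasmic peroxiredoxin, likewise rose at 0.25 h, 1.2 h and 13.5 h, with changes of 3.21, 4.17 and 0.88, and its call at 7.73 h was lost without any 1 of the 5 cultures (adjusted p up to 0.0959). SRX1, the sulfiredoxin that restores overoxidised peroxiredoxins, had a change of 0.62 at 0.25 h without a call and of 0.56 at 1.2 h with a call that was lost without the heat shock, NaCl or glucose culture (adjusted p up to 0.0712). It rose at 13.5 h, with its largest change, 0.96 (adjusted p = 0.0225, and up to 0.0399 with any 1 culture left out), and at 19.67 h, with a change of 0.81 and a call lost without any 1 of 4 cultures (adjusted p up to 0.0653). The arrays carry whole ORFs, so signal of close relatives such as TSA1 and TSA2, TRX1 and TRX2, or TRR1 and TRR2 may be shared between their spots.

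**Figure D2:**
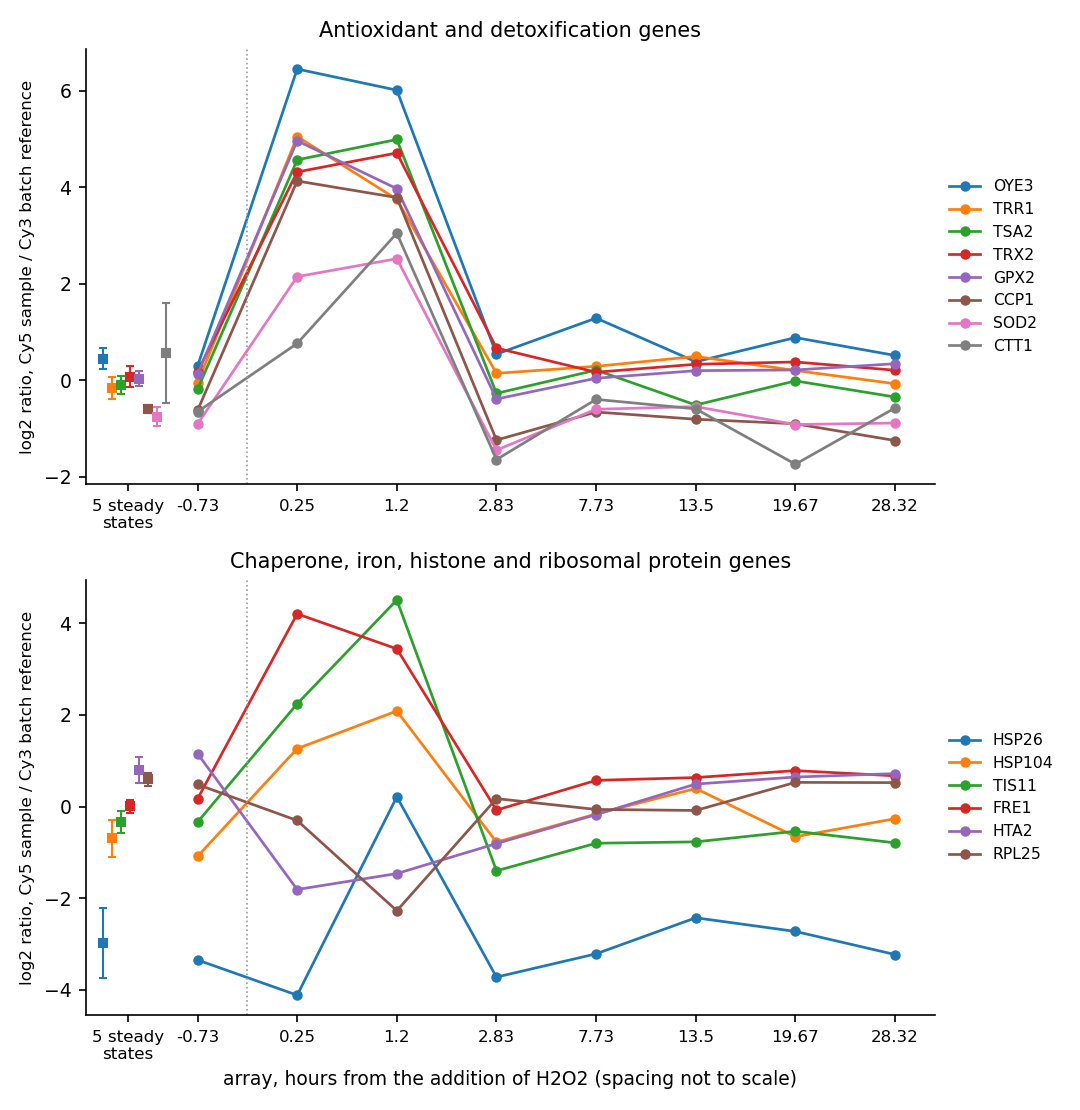
Log2 ratio of chemostat over batch signal (vertical axis) on each of the 8 arrays, in order of time in hours (horizontal axis), for genes that changed early. Each point is 1 array, and the squares with bars at the left are the mean and SD of the 5 unperturbed cultures. TRR1 stood at 5.05 and 3.75 on the 0.25 h and 1.2 h arrays and between -0.07 and 0.50 on the later ones.

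Glutathione genes were higher at the same times. Of 17 measured, 10 rose at 0.25 h and 14 at 1.2 h, against 5.95% and 16.5% of all ORFs, with median changes of 1.42 and 1.29. At 2.83 h 1 rose and 3 fell (0 fell without the DTT culture and 1 without the heat shock culture), against 9.74% and 8.81% of all ORFs. GPX2, a phospholipid hydroperoxide glutathione peroxidase, had a log2 ratio of 0.13 at -0.73 h and then 4.97, 3.97, -0.39, 0.05, 0.20, 0.22 and 0.35. GTT2, a glutathione transferase, had -0.62 and then 4.18, 5.59, 0.09, 0.37, 0.32, -0.23 and -0.35. Both were called at the first and second perturbed arrays and at no later one. GSH1 and GSH2, which catalyse the 2 steps of glutathione synthesis, rose by 2.18 and 1.54 at 0.25 h, and glutathione reductase GLR1 rose by 1.42. GSH1 fell below the steady states at 2.83 h, with a change of -0.74, and at 28.32 h, with -1.30, and both calls were lost without the DTT culture (adjusted p of 0.0543 and 0.062). YCF1, the vacuolar pump for glutathione conjugates, stayed higher for longer, with changes of 2.01, 1.64, 1.05, 0.72, 1.54, 1.20 and 0.74 that were called at all times but 7.73 and 28.32 h. The iron-sensing glutaredoxins GRX3 and GRX4 were not called at any time, with changes between -0.81 and 0.46.

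Among catalases, superoxide dismutases and related genes, 4 of 6 rose at 0.25 h and 5 at 1.2 h, against 5.95% and 16.5% of all ORFs. Their median changes were 2.66 and 3.05. Cytochrome c peroxidase CCP1 had a log2 ratio of -0.62 at -0.73 h and then 4.13, 3.79, -1.24, -0.66, -0.80, -0.90 and -1.25, with a fall below the steady states at 2.83 h (adjusted p = 0.0322, and 0.0741 without the DTT culture). The mitochondrial superoxide dismutase SOD2 had -0.91 and then 2.15, 2.52, -1.44, -0.60, -0.54, -0.91 and -0.88. The cytosolic catalase CTT1 was not called at 0.25 h, and it varied widely between unperturbed cultures. It had -0.65 and then 0.77, 3.05, -1.64, -0.39, -0.59, -1.74 and -0.57, against 0.57 ± 1.04 in the steady states (SD, n = 5), and was called at 1.2 h only (adjusted p = 0.0471, limma, and up to 0.0594 without the DTT, heat shock or glucose culture). The peroxisomal catalase CTA1 was not called at any time, with changes between -0.34 and 0.75. Where a member of these lists changed 2-fold or more, the change was largest at 0.25 h for 8 of 13 glutathione genes and for 2 of 7 thioredoxin and peroxiredoxin genes.

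Genes of oxidoreductases and transporters known as Yap1 targets included some of the largest changes of the course. Of 12 measured, 8 rose and 1 fell at 0.25 h, against 5.95% and 4.08% of all ORFs, with a median change of 3.06. OYE3, an NADPH oxidoreductase, had a log2 ratio of 0.29 at -0.73 h and then 6.45, 6.02, 0.54, 1.29, 0.39, 0.89 and 0.52 (adjusted p = 6.49e-06 at 0.25 h, limma), against 0.45 ± 0.21 in the steady states (SD, n = 5). GRE2, a methylglyoxal reductase, had -0.07 and then 5.76, 2.49, 0.54, 1.59, 0.25, -1.05 and 0.22. GRE2 was thus already much lower at 1.2 h than at 0.25 h, while AAD14, an aryl-alcohol dehydrogenase, was higher at 1.2 h, with changes of 4.71 and 6.27. Its relatives AAD6 and AAD10 changed by 3.71 and 3.58 at 0.25 h and by 5.09 and 4.86 at 1.2 h, and these near-identical genes may share signal. The member that fell was FLR1, a drug transporter that lies next to the histone gene HHF1. It was named after its values were seen, with changes of -1.18 at 0.25 h, -0.66 at 1.2 h, -2.44 at 2.83 h, -1.73 at 7.73 h and -1.21 at 19.67 h. All 5 were called, and the call at 1.2 h was lost without the DTT, NaCl or H2O2 culture (adjusted p up to 0.0725).

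The regulators of the oxidant response had smaller median changes than the enzymes, a difference that was not tested. Of 11 regulators, 5 rose at 0.25 h and 8 at 1.2 h, against 5.95% and 16.5% of all ORFs, with median changes of 0.51 and 1.17. YAP1 itself had a log2 ratio of 0.09 at -0.73 h and then 1.72, 2.33, 0.25, 0.21, 0.32, 0.22 and 0.24 (adjusted p = 0.0343 at 0.25 h and 0.00412 at 1.2 h, limma). The first of these calls was lost without the DTT or glucose culture (adjusted p up to 0.0656). YAP7, a relative of Yap1, changed by 3.09 and 2.07 at these times. ROX1, the heme-dependent repressor of hypoxic genes, changed by 2.68 and 2.98, and RPN4, the activator of proteasome genes, by 1.16 and 2.19, the first with a call that was lost without the NaCl culture (adjusted p of 0.0533). The genes of NADPH supply moved apart from each other: ZWF1, the first enzyme of the pentose phosphate pathway, rose by 2.16 at 0.25 h, while ALD6, an NADPH-forming acetaldehyde dehydrogenase, fell by 2.25 at 0.25 h and was back at a change of 0.95, with no call, at 1.2 h. Over the 16 genes of this list, 2 rose and 3 fell at 0.25 h (1 fell without the NaCl culture, and 2 without the DTT, glucose or H2O2 culture), and 7 rose and 1 fell at 1.2 h. Of all ORFs, 5.95% rose and 4.08% fell at 0.25 h, and 16.5% rose and 16.6% fell at 1.2 h.

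Iron genes were higher at 0.25 and 1.2 h. Of 27 iron uptake and iron response genes, 8 rose at 0.25 h and 18 at 1.2 h, against 5.95% and 16.5% of all ORFs. Their median changes were 0.37 and 1.43. At 2.83 h 2 rose and 3 fell (1 rose without the DTT, heat shock, NaCl or glucose culture), against 9.74% and 8.81% of all ORFs. The ferric reductase FRE1 had a log2 ratio of 0.17 at -0.73 h and then 4.20, 3.44, -0.08, 0.57, 0.63, 0.78 and 0.67. TIS11, which encodes a protein that destroys transcripts of iron-using proteins, had -0.34 and then 2.24, 4.51, -1.40, -0.80, -0.77, -0.54 and -0.79. FRE1 was highest on the first perturbed array and TIS11 on the second, and TIS11 was below the steady states at 2.83 h (adjusted p = 0.0234, and 0.0504 without the DTT culture, limma). FIT2, a cell wall protein that retains iron chelates, changed by 0.75 at 0.25 h (call lost without the DTT culture, adjusted p of 0.0555) and 4.00 at 1.2 h, and the ferroxidase FET3 by 0.96 and 2.71. ISU2, a scaffold for building iron-sulfur clusters, changed by 4.10 and 3.92 and was still called at 2.83, 13.5 and 19.67 h.

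Mitochondrial genes of the citric acid cycle were higher at the same times. Of 10 genes of the TCA cycle module of the study, 5 rose at 0.25 h and 6 at 1.2 h, against 5.95% and 16.5% of all ORFs. Their median changes were 1.09 and 1.34, and 3 fell at 2.83 h, against 8.81% of all ORFs. The modules are groups of co-expressed genes that the study took from a large collection of expression data, and whether these arrays were in it was not checked, so they are not treated as independent. IDH1 and IDH2, the subunits of mitochondrial isocitrate dehydrogenase, changed by 3.59 and 4.16 at 0.25 h, and aconitase ACO1 by 1.86. YOR135C, the ORF beside IDH2, changed by 2.93, and its signal may be shared with IDH2. CYC1, cytochrome c, changed by 3.43, 1.64 and 0.56 at 0.25, 1.2 and 2.83 h, and CYT2, the enzyme that attaches heme to cytochrome c1, by 2.60, 2.14 and 0.60. All 6 were called, but those at 2.83 h were lost without the DTT culture, and that of CYC1 also without the heat shock, NaCl or glucose culture (adjusted p up to 0.056 for CYC1 and 0.0628 for CYT2). Across the oxidative phosphorylation module of 51 genes, 11 rose and 1 fell at 0.25 h (0 fell without the DTT culture and 2 without the NaCl culture), with a median change of 0.51, and 7 rose and 5 fell at 1.2 h (2 fell without the DTT or NaCl culture and 3 without the heat shock culture), with a median of -0.17 (-0.02 against the mean of the 5 steady states). Both shares at 1.2 h were below the 16.5% and 16.6% of all ORFs that rose and fell. SDH1 and QCR2, subunits of complexes II and III, had their largest changes at 13.5 h, at 1.68 each. Of the 25 genes of the peroxide module, 21 rose and 1 fell at 0.25 h, with a median change of 3.71. This list is named by the study for its response to peroxide, so its direction is not independent evidence.

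Genes of the general stress programme were higher at 1.2 h. Over all ORFs, 5.95% rose and 4.08% fell at 0.25 h, 16.5% and 16.6% at 1.2 h, and 9.74% and 8.81% at 2.83 h. Of 15 known Msn2/4 targets, 0 were called in either direction at 0.25 h, 8 rose at 1.2 h and 5 fell at 2.83 h, with median changes of 0.01, 1.62 and -0.80 (-0.27 at 0.25 h against the mean of the 5 steady states). The count at 1.2 h was 5 without the DTT or NaCl culture, and that at 2.83 h was 3 without the NaCl or glucose culture and 8 without the H2O2 culture. HSP26, a small heat shock protein, had a log2 ratio of -3.35 at -0.73 h and then -4.11, 0.21, -3.72, -3.21, -2.42, -2.72 and -3.23, so that a single array stood apart (adjusted p = 0.00588 at 1.2 h, limma). YGP1, a cell wall glycoprotein, had -3.71 and then -2.66, 0.37, -3.74, -0.60, -0.31, -2.21 and -2.45, against -2.36 ± 1.15 in the steady states (SD, n = 5), and was called at 1.2 h only (adjusted p = 0.0484, and up to 0.0813 without the DTT, NaCl or glucose culture, limma). Of the 16 trehalose and glycogen genes, 1 rose and 2 fell at 0.25 h (0 rose without the DTT, glucose or H2O2 culture, and 1 fell without the heat shock or NaCl culture), 5 rose at 1.2 h and 7 fell at 2.83 h (4 without the DTT, heat shock or NaCl culture). The trehalose synthase subunit TSL1 had changes of 0.95 and 2.17 and the trehalase NTH1 of 0.69 and 2.42 at the first pair of times. Over the study's stress module of 255 genes, 37 rose and 7 fell at 0.25 h, 117 rose and 12 fell at 1.2 h, and 8 rose and 66 fell at 2.83 h (4 rose without the DTT or NaCl culture).

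Chaperone genes were higher at 0.25 and 1.2 h. Of 27, 11 rose at 0.25 h and 23 at 1.2 h, against 5.95% and 16.5% of all ORFs, with median changes of 0.56 and 1.38. The change was largest at 1.2 h for 21 of the 23 that reached 2-fold. HSP104, the disaggregase, had a log2 ratio of -1.09 at -0.73 h and then 1.26, 2.08, -0.78, -0.16, 0.40, -0.66 and -0.26. HSP30, a regulator of the plasma membrane proton pump, had -0.76 and then 3.36, 5.11, -3.23, -2.73, -2.36, -2.03 and -1.22. HSP30 thus stood far above the steady states, at -1.21 ± 0.40 (SD, n = 5), on the first pair of perturbed arrays and below them at 2.83 h (adjusted p = 0.0118, limma).

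Proteasome genes were higher mainly at 1.2 h. Of 32 subunit genes, 4 rose at 0.25 h, 28 at 1.2 h and 10 at 2.83 h, against 5.95%, 16.5% and 9.74% of all ORFs. Their median changes were 0.44, 0.97 and 0.33. Without the DTT culture 1 rose at 0.25 h and 3 at 2.83 h, and without the H2O2 culture 2 rose at 0.25 h. Leaving out the heat shock, NaCl or glucose culture gave 5 or 6 at 2.83 h. All 13 that reached 2-fold did so most strongly at 1.2 h. PRE3, a catalytic subunit, had a log2 ratio of 0.19 at -0.73 h and then 1.17, 2.29, 2.18, 1.77, 0.49, -0.96 and 0.13, with a fall below the steady states at 19.67 h (adjusted p = 0.00717, limma). No other proteasome gene named here kept a 2-fold increase beyond 1.2 h: RPN6 changed by 1.63 at 1.2 h and 0.82 at 2.83 h, and RPT3 by 1.43 and 0.88.

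**Figure D3:**
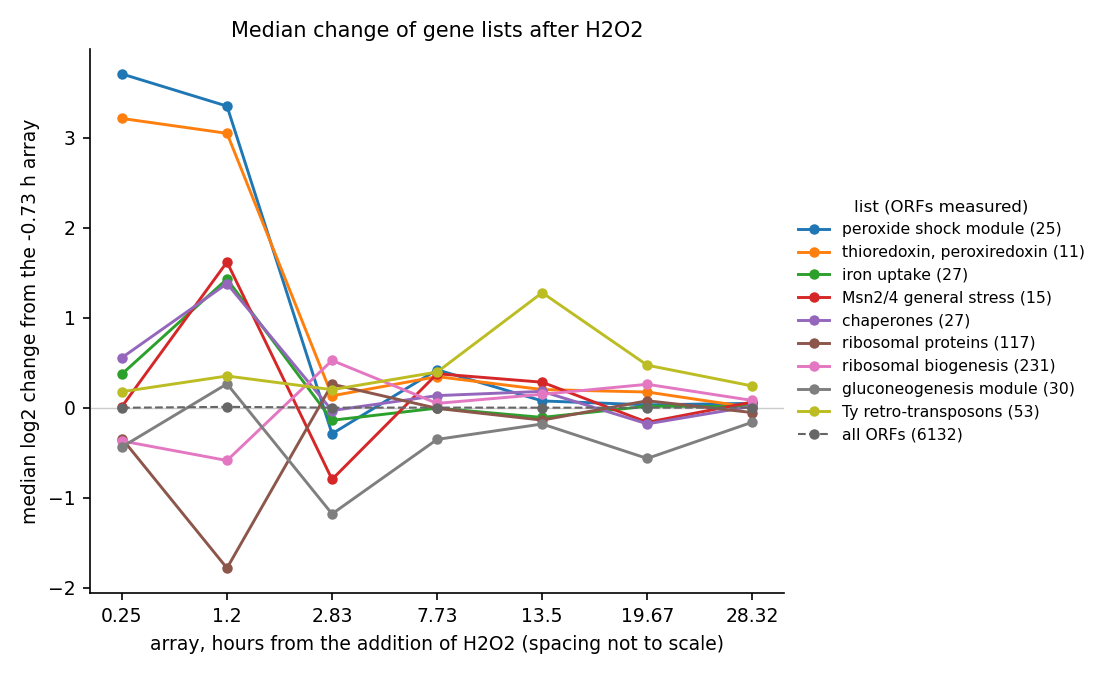
Median change over the genes of each list from the -0.73 h array (log2, vertical axis) at each time in hours after H2O2 (horizontal axis), 1 line per list. The thioredoxin and peroxiredoxin list stood at 3.21 and 3.05 at 0.25 and 1.2 h, the ribosomal protein module at -1.78 at 1.2 h, and the Ty module at 1.28 at 13.5 h.

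Ribosome genes fell mainly at 1.2 h. Of 117 ribosomal protein genes, 14 fell at 0.25 h, against 4.08% of all ORFs, and 105 at 1.2 h, against 16.6%, with median changes of -0.34 and -1.78. At 2.83 h the median was 0.26, with 15 of the 117 rising, when 9.74% of all ORFs rose. Without the DTT culture 6 fell at 0.25 h, 104 at 1.2 h and 6 rose at 2.83 h, and without the NaCl culture 9 fell at 0.25 h. RPL25 had a log2 ratio of 0.48 at -0.73 h and then -0.30, -2.27, 0.17, -0.06, -0.08, 0.53 and 0.52. The 1.2 h array was its lowest by far. Ribosomal biogenesis genes, which build and process ribosomal RNA and assemble the subunits, went further in the other direction afterwards: of 231, 27 fell at 0.25 h, 106 fell at 1.2 h and 82 rose at 2.83 h, with median changes of -0.37, -0.59 and 0.52. These counts were 12, 91 and 49 without the DTT culture. MTR4, a helicase of the nuclear exosome, changed by 1.98 at 2.83 h and was called at each of the 4 times from 2.83 to 19.67 h, but those at 7.73 and 13.5 h were lost without the DTT, heat shock or NaCl culture (adjusted p up to 0.0686). Its value on the 1.2 h array was listed at exactly 0.

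One member of the biogenesis module took its own course. ACL4, the chaperone of ribosomal protein Rpl4, had changes of 3.05, 2.13, -2.86, -2.53, -2.35, -1.70 and -0.33 over the 7 times. It rose at 0.25 and 1.2 h and fell below the steady states at the next 4 times (adjusted p between 0.00107 and 0.00815, limma).

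A part of the histone and cell cycle genes was lower at 0.25 h, when 4.08% of all ORFs fell, and at 1.2 h, when 16.6% fell. Of 42 genes of the study's module of histones and other proteins, 11 fell at 0.25 h and 24 at 1.2 h, with median changes of -0.44 and -1.06. The module holds more than histone genes, so these are not counts of histone genes. HTA2, which encodes histone H2A, had a log2 ratio of 1.16 at -0.73 h and then -1.81, -1.46, -0.81, -0.17, 0.49, 0.64 and 0.72 (adjusted p = 0.000588 at 0.25 h, limma). The histone H4 genes HHF1 and HHF2 changed by -2.53 and -2.40 at 0.25 h, and the H4 genes, like HTA1 and HTA2, are near copies that may share signal. HTB2 was listed at 0 on all 8 arrays. Of mitotic genes, the polo kinase CDC5 changed by -1.96, -1.47 and -1.02 at 0.25, 1.2 and 2.83 h, each called, and over the 56 genes of the G2/M module 9 fell (4 without the DTT culture) and 2 rose at 0.25 h, and 19 fell and 3 rose at 1.2 h. The 2 rising were 0 without the DTT, NaCl or glucose culture and 1 without the heat shock or H2O2 culture. Of all ORFs, 5.95% rose at 0.25 h and 16.5% at 1.2 h. Of 22 genes of phospholipid metabolism 4 fell at 0.25 h, 7 at 1.2 h and 12 at 2.83 h (7 without the DTT culture). At 2.83 h 8.81% of all ORFs fell. The inositol transporter ITR1 changed by -1.54, -2.49 and -1.30 at these 3 times, and the inositol synthase INO1 by -0.50, -1.68 and -1.69. Of 17 hexose transporter genes, 0 were called at 0.25 h and 8 fell at 1.2 h, and these too are close relatives.

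Deep and long falls were seen among genes for the use of acetate and other non-sugar carbon sources. Of the 30 genes of the gluconeogenesis module, 5 rose and 8 fell at 0.25 h, 8 rose and 8 fell at 1.2 h, and 19 fell at 2.83 h with 0 rising at an adjusted p under 0.05, against 8.81% of all ORFs falling at that time, with median changes of -0.44, 0.26 and -1.18 (0.02 at 1.2 h against the mean of the 5 steady states). Over all ORFs, 5.95% rose and 4.08% fell at 0.25 h, 16.5% and 16.6% at 1.2 h, and 9.74% and 8.81% at 2.83 h. The 8 rising at 1.2 h were 5 without the H2O2 culture. ACS1, acetyl-CoA synthetase, had a log2 ratio of -1.22 at -0.73 h and then -2.70, -4.83, -6.08, -3.75, -2.73, -2.94 and -0.91. The acetate transporter ADY2 had -0.42 and then -1.75, -4.40, -5.28, -3.78, -2.89, -2.28 and -0.83. Both were lowest at 2.83 h, and both lay within 1 SD of the steady-state mean again at 28.32 h (ACS1 -1.15 ± 0.44 and ADY2 -0.70 ± 0.39, SD, n = 5). FDH1, formate dehydrogenase, had -1.23 and then -3.54, -5.36, -5.51, -3.86, -2.78, -2.42 and -0.99, and was called at every time except 28.32 h, with that at 19.67 h lost without the heat shock or NaCl culture (adjusted p up to 0.0583). DIC1, the mitochondrial dicarboxylate carrier, had 1.94 and then -0.03, -1.21, -1.81, -1.05, -0.38, 0.29 and 1.26, with calls at 4 times from 1.2 to 13.5 h, of which those at 7.73 and 13.5 h were lost without the NaCl culture and the first of these without the DTT culture as well (adjusted p up to 0.0639 and 0.0506). The same direction held for PCK1 and FBP1, the enzymes particular to gluconeogenesis, which were named after their values were seen. PCK1 changed by -1.59 at 1.2 h (call lost without the heat shock, NaCl or H2O2 culture, adjusted p up to 0.0681) and -2.37 at 2.83 h, and FBP1 by -2.75 and -2.65.

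**Figure D4:**
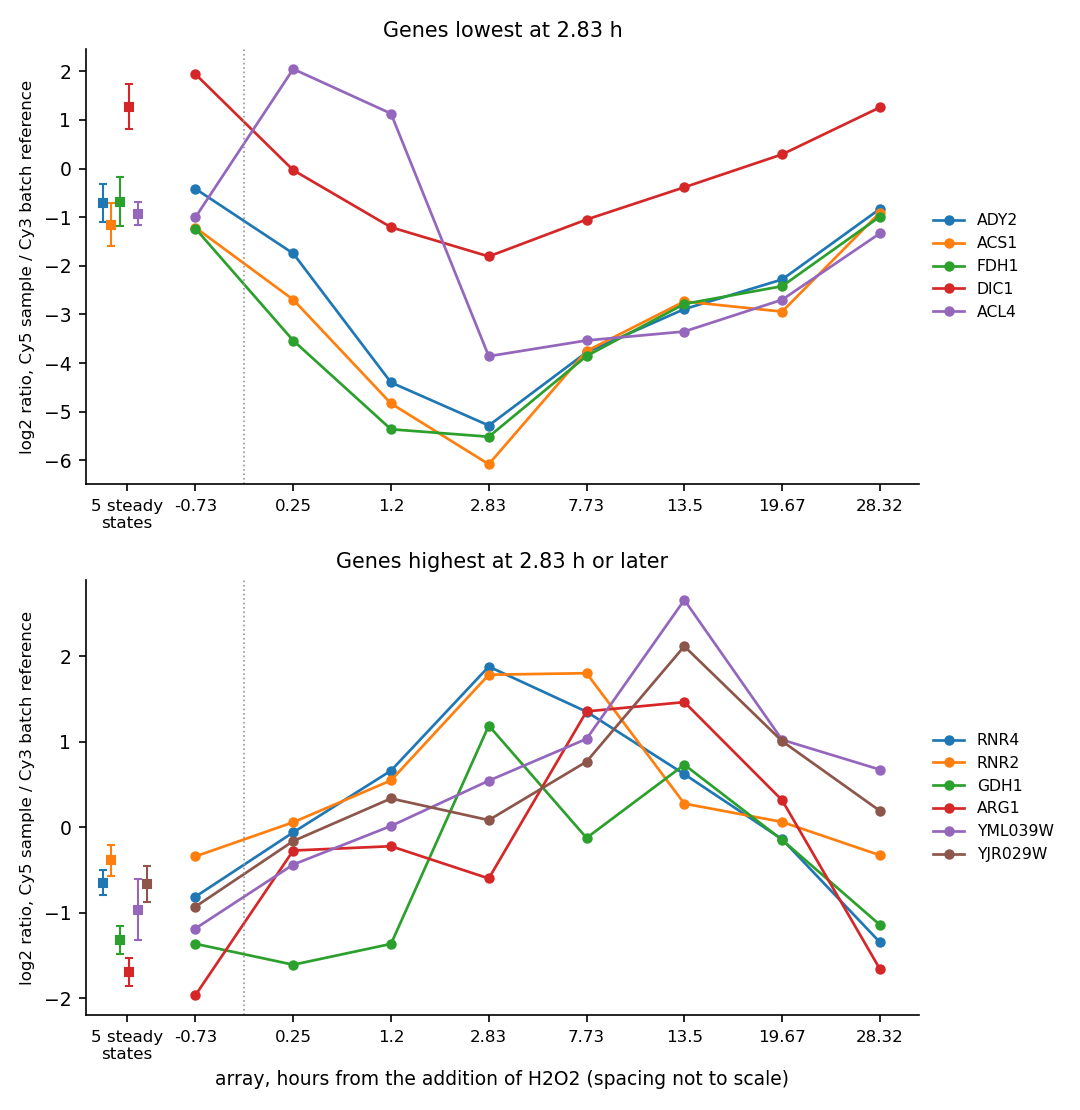
Log2 ratio of chemostat over batch signal (vertical axis) on each of the 8 arrays, in order of time in hours (horizontal axis), for genes with long or late changes. Each point is 1 array, and the squares with bars at the left are the mean and SD of the 5 unperturbed cultures. ACS1 was lowest at 2.83 h, at -6.08, and was back at -0.91 at 28.32 h.

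DNA and nucleotide genes were among those that rose at 1.2 and 2.83 h. RNR2 and RNR4, the small subunits of ribonucleotide reductase, which makes DNA building blocks, were highest at 2.83 and 7.73 h. RNR4 had a log2 ratio of -0.81 at -0.73 h and then -0.06, 0.66, 1.88, 1.35, 0.62, -0.14 and -1.34. RNR2 had -0.34 and then 0.06, 0.55, 1.78, 1.80, 0.28, 0.06 and -0.33. RNR4 rose at the 4 times from 1.2 to 13.5 h and RNR2 at the 3 times from 1.2 to 7.73 h. Of all ORFs, 5.95% rose and 4.08% fell at 0.25 h, 16.5% and 16.6% at 1.2 h, and 9.74% and 8.81% at 2.83 h. Over the 15 genes of DNA damage and nucleotide supply, 2 rose and 2 fell at 0.25 h, 8 rose and 1 fell at 1.2 h, and 4 rose and 1 fell at 2.83 h. Leaving out any 1 of the 5 cultures left 1 rising at 0.25 h, and leaving out the DTT culture left 1 falling. The fall at 2.83 h was lost without the DTT, NaCl or glucose culture. PLM2, a putative transcription factor of the damage response, rose at 0.25, 1.2 and 7.73 h, with changes of 2.16, 2.27 and 1.84. RAD54, a recombination ATPase, had a change of -0.22 at 0.25 h and rose at 1.2 h, with a change of 1.63, and at 2.83 and 13.5 h.

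Some genes of nitrogen and arginine metabolism were higher at later times. GDH1, the NADPH-dependent glutamate dehydrogenase, had a log2 ratio of -1.36 at -0.73 h and then -1.61, -1.36, 1.19, -0.12, 0.73, -0.15 and -1.14. ARG1, argininosuccinate synthetase, had -1.96 and then -0.27, -0.22, -0.60, 1.35, 1.46, 0.32 and -1.66. GDH1 was called at the 4 times from 2.83 to 19.67 h, with that at 7.73 h lost without the DTT or heat shock culture (adjusted p up to 0.0686), and ARG1 at all 6 up to 19.67 h, with its highest values at 7.73 and 13.5 h. ARG4, the next enzyme of the pathway, changed by 1.81 at 1.2 h and 1.54 at 7.73 h, both called, and fell at 28.32 h, with a change of -1.59. Its call at 7.73 h was lost without any 1 of 4 cultures and that at 28.32 h without any 1 of 3 (adjusted p up to 0.077 and 0.0623). In the amino-acid biosynthesis module of 292 genes, 55 rose and 17 fell at 13.5 h, when 10.7% and 8.51% of all ORFs did. The module shares ORFs with the Ty list described next, YML039W among them, so its count at 13.5 h includes Ty ORFs. At 7.73 h 22 rose, against 1.74% of all ORFs, and at 1.2 h 83 rose, against 16.5%. The 22 were 3 to 13 with any 1 culture left out.

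The Ty list stood out at 13.5 h. Of its 53 members, most of them ORFs of Ty retrotransposons, 2 rose at 0.25 h, 8 at 1.2 h, 7 at 2.83 h, 7 at 7.73 h, 26 at 13.5 h, 11 at 19.67 h and 3 at 28.32 h, with a median change of 1.28 at 13.5 h and of 0.18 to 0.47 at the other 6 times. Against the mean of the 5 steady states the median was 0.82 at 13.5 h and -0.04 to 0.33 at the other times, with values below 0 at 2.83 and 28.32 h. Of all ORFs, 5.95% rose at 0.25 h, 16.5% at 1.2 h, 9.74% at 2.83 h, 1.74% at 7.73 h, 10.7% at 13.5 h, 4.79% at 19.67 h and 1.57% at 28.32 h. The shares of the Ty list at 0.25 and 1.2 h lay below these. Without the DTT or NaCl culture 5 members rose at 1.2 h and 4 at 2.83 h, and with any 1 culture left out 1 to 6 rose at 7.73 h, 20 to 25 at 13.5 h and 0 to 3 at 28.32 h. YML039W, a Ty1 ORF, had a log2 ratio of -1.18 at -0.73 h and then -0.44, 0.02, 0.54, 1.03, 2.66, 1.02 and 0.67. YJR029W had -0.93 and then -0.16, 0.34, 0.08, 0.77, 2.12, 1.01 and 0.19. Of the 37 members with a 2-fold change, 28 were highest at 13.5 h. Ty copies are repeated across the genome with near-identical sequence, so these 53 spots are not separate measurements and do not show which copies changed.

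At 28.32 h 96 ORFs rose and 264 fell, or 1.57% and 4.31% of all ORFs, against 107 and 148 at 7.73 h. The largest increases called were YMR045C and YML039W, both Ty ORFs, and YLR458W, with changes of 1.87, 1.86 and 1.56. The largest decreases were AZR1, a drug transporter, ARG4 and RRP9, a component of the U3 small nucleolar ribonucleoprotein, with changes of -1.90, -1.59 and -1.52. All calls at this time depended on the steady-state array of the DTT culture, as given above. AZR1 also fell at 19.67 h, with a change of -2.19. YLR162W and YGL088W had the largest changes among ORFs that peaked at 7.73 h or later and were lower, at -3.40 and -3.10 at 7.73 h, but neither was called, since the 5 steady-state arrays spread by an SD of 0.82 and 0.66. SET1, a histone methyltransferase, was low on 1 array only, at 7.73 h, with a change of -2.66.

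A comparison of the first perturbed arrays asked what H2O2 did beside other stresses. The H2O2 array at 0.25 h was set against the arrays of DTT at 0.33 h, heat shock at 0.25 h and NaCl at 0.25 h, each minus its own array before onset. At least 2-fold higher and lower were 257 and 125 ORFs with H2O2, 68 and 67 with DTT (1.11% and 1.09% of all ORFs), 312 and 321 with heat shock (5.09% and 5.23%), and 618 and 836 with NaCl (10.1% and 13.6%). The median change of the thioredoxin and peroxiredoxin list was 3.21 with H2O2, 0.62 with DTT, 0.50 with heat shock and 0.38 with NaCl. That of the glutathione list was 1.42, 0.05, 0.25 and 0.49 in the same order, and that of the Yap1 oxidoreductase and transporter list was 3.06, 0.02, 0.05 and -0.12. GRE2, a member of the Yap1 list, was also higher with NaCl, with changes of 5.83, 0.33, 0.81 and 3.72. The median change of the catalase and superoxide dismutase list was 2.66, 0.12, 0.56 and 1.07. For the Msn2/4 targets it was 0.01 with H2O2, -0.17 with DTT, 2.29 with heat shock and 2.59 with NaCl, and for the ribosomal protein module -0.34, -0.19, -0.76 and -2.10. The TCA cycle module had a median of 1.09 with H2O2, -0.30 with DTT, 0.41 with heat shock and -0.85 with NaCl.

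**Figure D5:**
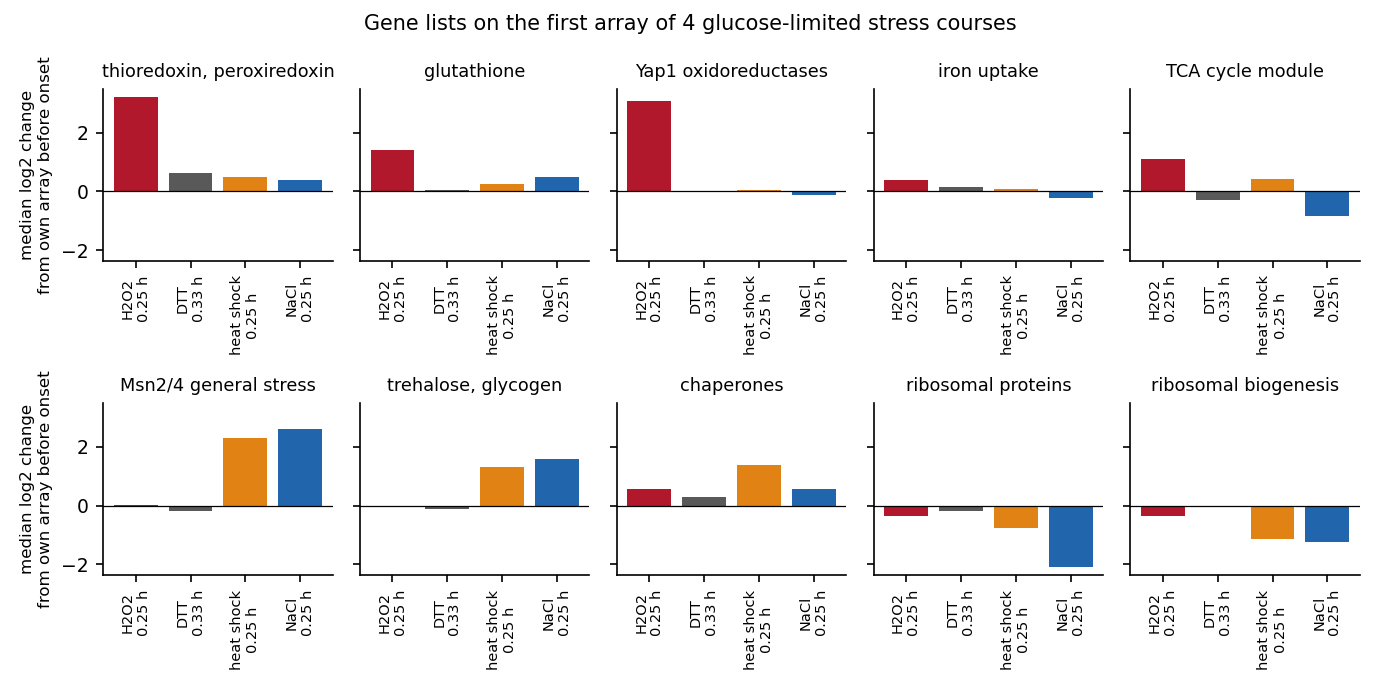
Median change (log2, vertical axes) over each list (panels) from the array before onset to the first perturbed array in the glucose-limited courses of H2O2, DTT, heat shock and NaCl (horizontal axes). Each bar is the median over the list in 1 course of 1 culture, and the Yap1 list stood at 3.06 with H2O2 and between -0.12 and 0.05 with the other 3.

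Gene by gene, H2O2 against the mean of the other 3 stresses gave 0 ORFs (0% of 6132) at an adjusted p under 0.05 (limma, 1 course against 3), with 227 at an unadjusted p under 0.05. With the 3 histidine-limited courses of DTT, heat shock and NaCl added, 57 ORFs were called, 52 higher and 5 lower with H2O2. Those courses differ in the limiting nutrient and, by the study's methods though not by the sample labels, in strain, a W303 derivative. The histidine-limited DTT course had no array before onset here and was set against the mean of the other histidine-limited steady states. The largest differences upward were those of OYE3, OSI1, CYC1, GTT2 and TRR1. OYE3 changed by 6.16 with H2O2, against 0.77 with DTT, 0.08 with heat shock and -0.11 with NaCl, a difference of 5.91 (SE 0.50, adjusted p = 0.105). CYC1 changed by 3.43 with H2O2, against -0.01 with DTT, -1.20 with heat shock and -3.04 with NaCl, a difference of 4.84 (SE 1.17, adjusted p = 0.614). OSI1, an oxidoreductase-like gene induced by oxidants, changed by 5.77 with H2O2, against 0.47, 0.32 and 0.59. The largest differences downward were those of SPG4, HSP26, SPG1, RTC3 and YBR116C, with adjusted p = 0.985 for each. HSP26 changed by -0.77 with H2O2, against -0.32 with DTT, 5.48 with heat shock and 3.69 with NaCl.

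GPX2 and ALG7 are neighbours that are read away from each other, by the gene order of the R64 assembly. ALG7, which starts N-linked glycosylation, had a log2 ratio of 0.21 at -0.73 h and then 4.40, 3.99, 0.20, 0.47, 0.32, 0.57 and 0.53, close to the course of GPX2. SWA2, an auxilin-like chaperone partner, and ASP1, the cytosolic asparaginase, are neighbours as well, and they changed by -2.62 and -2.29 at 0.25 h. Such pairs were few. Among the divergent neighbour pairs in which at least 1 gene was 2-fold higher at 0.25 h, both genes were in 9 of 101 pairs, or 8.91%, against 18 of 226 pairs on the same strand, or 7.96%, and 5 of 118 convergent pairs, or 4.24%.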

How the data were processed

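RNA was measured on spotted ORF arrays, with cDNA labelled indirectly through amino-allyl nucleotides. The authors deposited log2 ratios of Cy5 (chemostat) over Cy3 (batch reference) that they had already corrected for technical biases and normalised, and array medians lay between -0.004 and 0. Arrays carry no read depth, and precision was limited by their number. Exact zeros may stand for missing measurements: 207 of the 6132 ORFs had at least 1 on the 8 arrays and 22 had 8, with 50 to 142 per array. Of all ORFs, 5665 were found in the R64 reference table by systematic name and 5151 had a gene symbol there. All columns were tied to samples by title, and 0 were left without one.

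Each perturbed array was compared with the 5 glucose-limited steady-state arrays in limma 3.58.1 (R 4.3.3), with Benjamini-Hochberg adjustment over all 6132 ORFs. The first perturbed arrays were compared as 1 course against 3. Tables and plots were made with Python 3.11.15, numpy 2.4.6, pandas 2.3.3 and matplotlib 3.10.9. On simulated data with 200 ORFs changed by 2 on the log2 scale, 93.5% were recovered for 1 array against 5. For 1 course against 3, 0% were recovered at a change of 2, 61.5% at 4 and 91% at 8.

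Genes were named by a rule: among called ORFs the 10 largest changes each way at 0.25 h and 3 each way at later times, all genes of the thioredoxin, glutathione and catalase lists, up to 6 of each other list, the 5 largest differences from the other stresses each way, and 3 each way among ORFs that peaked at 7.73 h or later. The text gives a selection of these. The members and lists were chosen with earlier results of these data known. Modules are gene groups listed by the study, which used the Iterative Signature Algorithm on a large expression dataset. Its text also calls them defined earlier, and whether that dataset held these arrays is not clear from it. Alternatives were another baseline and spread, median centring, zeros as missing, robust moderation, leaving out each array in turn, added histidine-limited courses, ratios without subtraction of the steady state, and list means.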

Additional observations from a re-analysis of the deposited data

Results flagged for a closer look

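Among the 5 glucose-limited steady-state arrays, 141 sets of values (list medians and genes named in the text) were searched for 1 array that stood apart, by the gap to its nearest neighbour as a share of the whole range. For 5 arrays a gap above 0.71 counts, and chance flags about 1 in 20 sets. There were 9 such sets, 4 lists and 5 genes, and the array that stood apart was that of the glucose culture in 5, the NaCl culture in 3 and the heat shock culture in 1.

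The median log2 ratio of the Yap1 oxidoreductase and transporter list was 0.20 in the glucose culture, against 0.30 to 0.32 in the others (gap 0.817). For the ergosterol list it was -0.32, against -0.06 to 0.01 (gap 0.776), for the G1 cell cycle module 0.05, against 0.18 to 0.21 (gap 0.822), and for the cell wall module -0.14, against 0.17 to 0.26 (gap 0.769). The Ty ORF YML039W had a log2 ratio of -0.33 in the glucose culture, against -1.18 to -1.01 in the others (gap 0.792). In the NaCl culture PRX1 had -0.94 where the others were listed at 0 (gap 1.0). ITR1 had 0.50 there, against 0.13 to 0.20 (gap 0.817), and GDH1 -1.04, against -1.43 to -1.36 (gap 0.807). TRR2, the mitochondrial thioredoxin reductase, had 0.28 in the heat shock culture, against -0.03 to 0.06 (gap 0.711).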

How the results depend on the processing

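The spread rested on 5 unperturbed cultures, and each time on 1 array. Leaving out 1 steady-state array gave 386 to 540 calls at 0.25 h, 1630 to 1961 at 1.2 h, 616 to 1089 at 2.83 h, 52 to 181 at 7.73 h, 745 to 1136 at 13.5 h, 418 to 795 at 19.67 h and 0 to 411 at 28.32 h. The lowest was without the DTT culture each time. A further fit took the -0.73 h array as the baseline. Its spread came from pairs of arrays before onset within the histidine-limited heat shock, NaCl and clotrimazole cultures, which by the study's methods were of another strain. The SD of the difference was 0.19 to 0.22 within such pairs, against 0.30 to 0.45 between glucose-limited cultures. Calls in that fit were 1191 at 0.25 h, 1870 at 2.83 h, 982 at 7.73 h, 1917 at 13.5 h, 1509 at 19.67 h and 921 at 28.32 h, and 2969 at 1.2 h stayed within 1.5 times the main count. Median centring, zeros as missing and robust moderation kept each count of limma calls within 1.5 times. Against the mean of the 5 steady states, 296 ORFs were 2-fold higher at 2.83 h, 115 were higher and 210 lower at 28.32 h, and 139 had their largest change at 28.32 h. That baseline moved 102 of 245 list medians and 525 of 1484 changes of named genes by more than 1 SD of the steady states. List means in place of medians moved 97 of 245. Adding histidine-limited courses gave 57 ORFs in the comparison with other stresses, which had 0 under its other alternatives, with 149 to 489 at an unadjusted p under 0.05. The cause of these shifts was not tested. No paired analysis was possible because the H2O2 course had 1 array of 1 culture at each time, and 4 of the 5 steady-state arrays came from other cultures.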

Other observations

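Several further lists moved at 1.2 h, when 16.5% of all ORFs rose and 16.6% fell. Of 42 genes of the phosphate and iron utilisation module, 19 rose, with a median change of 0.63. PHO84, the high-affinity phosphate transporter, had a log2 ratio of -0.66 at -0.73 h and then -1.02, 1.60, 0.31, 0.48, 0.16, 0.02 and 0.34 (adjusted p = 0.000105 at 1.2 h, limma). ARN1, a transporter of iron siderophores, had a change of 0.76 at 0.25 h without a call and rose at 1.2 h, with a change of 2.43. Of 63 genes of the PAU module 21 rose at 1.2 h, with a median change of 0.27, and of 32 genes of the calcium and calmodulin module 20 rose, with a median of 0.93. In the cell wall module of 23 genes, 10 fell at 1.2 h, with a median of -0.90. ELO3, a fatty acid elongase for sphingolipids, changed by -1.34 at 0.25 h and -2.25 at 1.2 h, and OPI3, an enzyme of phosphatidylcholine synthesis, fell by 2.46 at 1.2 h. These modules are the study's groups of co-expressed genes and are not treated as independent of these arrays.

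Sulfur and sterol genes had members called in both directions. Of 27 genes of sulfate assimilation and methionine, 1 rose and 3 fell at 0.25 h, and 7 rose and 2 fell at 1.2 h. Over all ORFs, 5.95% rose and 4.08% fell at 0.25 h, and 16.5% and 16.6% at 1.2 h. Methionine synthase MET6 changed by -1.56 and the cysteine pathway enzyme CYS4 by -1.21 at 0.25 h, while STR2, which joins cysteine to homoserine, rose by 1.43. The methionine permease MUP1 rose at 1.2 h only, with a change of 1.76. Of 25 ergosterol genes, 6 rose and 5 fell at 1.2 h (3 fell without the DTT or H2O2 culture), near the 16.5% and 16.6% of all ORFs. At 2.83 h 5 rose (3 without the DTT or NaCl culture), against 9.74% of all ORFs. ERG4, which catalyses the last step of the pathway, changed by 1.77 at 2.83 h, and ERG11, the target of azole drugs, had changes of -1.04 and -0.88 at 0.25 and 1.2 h whose calls were lost without the DTT, NaCl or H2O2 culture (adjusted p up to 0.08 and 0.0563). Of 100 mitochondrial ribosomal protein genes, 12 rose and 1 fell at 0.25 h, when 5.95% and 4.08% of all ORFs did. Without the DTT, NaCl or glucose culture 4, 7 and 7 rose. At 1.2 h 9 rose and 14 fell (8 fell without the DTT culture), both below the shares of all ORFs.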
